A study of Mus musculus with 9 samples.

Results

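A group of 10 genes was followed, listed by name among the 56748 genes of the count table: the caveolins *Cav1* and *Cav2*, the cavins *Cavin1* and *Cavin2*, the EHD ATPases *Ehd1*, *Ehd2*, *Ehd3* and *Ehd4*, and the transcriptional coactivators *Wwtr1* (which encodes TAZ) and *Yap1* (which encodes YAP). Every name matched 1 row of the table. RNA-seq had been carried out on hematopoietic stem cells (HSCs) sorted from the bone marrow of female mice on a C57BL/6 background. The sort took Lin- Sca1+ c-Kit+ CD48- CD150+ cells, called SLAM HSCs, from young mice of 6 to 10 weeks (yHSCs) and from pre-aged mice of 14 to 16 months (paHSCs), and the paHSCs were divided by surface P-selectin (Selp) into a Selp_low and a Selp_high fraction. Each of the 3 groups had 3 libraries. No transgene, deletion or drug distinguished the groups. The sources used here do not say if a library came from 1 mouse or from several, so the spread between libraries may hold less than the spread between mice. The 10 genes were chosen by name with the levels and fold changes of these same libraries in view. Which of the 3 comparisons weighed in the choice is not stated, so the differences between groups are given for them as a description. No p-value is printed for a single member. Calls of members and counts under a p threshold, given further on, belong to the same description.

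Caveolae are small flask-shaped pits of the plasma membrane. Caveolins sit in the inner leaflet, cavins form a coat around the neck and bulb, and EHD2 is an ATPase that assembles at the neck and holds the pit at the surface. The other EHD proteins bind membranes of the endocytic recycling route, where they help to return internalised receptors to the surface. YAP and TAZ are kept out of the nucleus when the Hippo kinases phosphorylate them, and otherwise enter it and switch on genes together with the TEAD DNA-binding factors. Caveolae are plentiful in endothelial cells, adipocytes and muscle and sparse in most blood cells.

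*Cavin2*, *Ehd3* and *Wwtr1* were the members whose levels moved most closely together over the libraries, and the 250 bases before the RefSeq transcription start of each are shown for that reason, 5′ to 3′, from build GRCm38.p6. A window was found for 9 of the 10 members, all but *Ehd1*. *Cavin1*, *Cav1* and *Wwtr1* had 2 RefSeq entries each, and the entry with the start farthest upstream was used. The windows printed are chr1:51288876-51289125 on the plus strand for *Cavin2*, chr17:73804591-73804840 on the plus strand for *Ehd3*, and chr3:57575911-57576160 on the minus strand for *Wwtr1*. Capitals mark matches to short core words of factors active in HSCs or downstream of TAZ, searched on both strands. The word AGATAA stood for GATA factors together with its variants AGATAG and TGATAA and the further form TGATAG. The word GGAATG stood for TEAD factors, AGGAAG for ETS factors and TGTGGT for RUNX factors, and no word overlaps another in the windows shown.
Cavin2: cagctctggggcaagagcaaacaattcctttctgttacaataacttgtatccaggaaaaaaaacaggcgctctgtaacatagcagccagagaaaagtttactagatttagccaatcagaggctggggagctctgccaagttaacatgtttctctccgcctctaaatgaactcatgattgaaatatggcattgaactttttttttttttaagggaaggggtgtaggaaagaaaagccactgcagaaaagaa
Ehd3: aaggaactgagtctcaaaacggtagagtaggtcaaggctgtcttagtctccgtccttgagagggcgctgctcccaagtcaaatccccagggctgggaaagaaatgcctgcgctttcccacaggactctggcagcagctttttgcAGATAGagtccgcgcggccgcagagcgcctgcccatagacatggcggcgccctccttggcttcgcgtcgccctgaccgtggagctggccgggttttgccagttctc
Wwtr1: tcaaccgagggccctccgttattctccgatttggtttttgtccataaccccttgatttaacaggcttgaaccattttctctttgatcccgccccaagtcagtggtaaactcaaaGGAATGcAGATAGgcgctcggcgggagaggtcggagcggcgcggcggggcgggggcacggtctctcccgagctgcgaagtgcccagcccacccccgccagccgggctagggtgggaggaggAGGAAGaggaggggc
The *Ehd3* and *Wwtr1* windows each held the GATA word AGATAG on the strand printed, from base 106 to base 101 before the start in *Ehd3* and from base 129 to base 124 in *Wwtr1*. The *Wwtr1* window also held the TEAD word directly upstream, from base 136 to base 131, and 1 ETS word from base 15 to base 10. No word was found in the *Cavin2* window, whose GC content was 40.4%, against 60% for *Ehd3* and 61.6% for *Wwtr1*. Among the 32851 windows of the RefSeq table, 26.5% held a GATA word, 12.6% the TEAD word, 29.5% the ETS word and 14% the RUNX word. These shares count every entry of a gene. Of the 9 members with a window, 2 held a GATA word, 3 the TEAD word (*Wwtr1*, *Yap1* and *Cavin1*), 3 the ETS word (*Wwtr1*, *Yap1* and *Ehd4*) and 0 the RUNX word. These matches describe the letters alone, since binding was not measured in these libraries.

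Levels are given as CPM, the usual depth-scaled count unit, after edgeR's TMM scaling, and genes are compared with each other in FPKM, which also divides by the gene length in the authors' table. The libraries held 24866975 to 35375310 counts, so that 3 counts, taken as the most that a count of 0 allows, came to 0.0695 to 0.198 CPM; this covers counting error only. *Selp*, the gene behind the sort, stood at 264 to 651 CPM in Selp_high paHSCs, at 109, 29.3 and 93.3 CPM in Selp_low replicates 1, 2 and 3, and at 20.5 to 29.99 CPM in yHSCs, so Selp_low replicate 2 lay within the yHSC range. Selp_low replicates 2 and 3 stood apart: their 10 most abundant genes took 44.8% and 20.9% of all counts, against 3.90% to 12.5% in the other 7 libraries. Summed B-cell and plasma-cell markers reached 105723 CPM in Selp_low replicate 2 and summed neutrophil markers 203803 CPM in Selp_low replicate 3, against at most 5477 and 63297 CPM in any other library. Markers of HSCs were present in all groups, with sums of 932.5 to 2022 CPM in yHSCs, 697 to 1364 CPM in Selp_low paHSCs and 1471 to 1975 CPM in Selp_high paHSCs. Some results that include the Selp_low group are therefore also given without these libraries. Where no such value is printed, the result rests on all 3 Selp_low libraries. In bulk libraries, fewer cells of a type and less RNA per cell cannot be told apart.

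The caveolins did not have the ordered levels of *Cavin2*, *Ehd3* and *Wwtr1*. *Cav1* (ENSMUSG00000007655, mm39 chromosome 6, 17306334 to 17341451, plus strand), the caveolin that most cell types need to build caveolae, was close to absent. It had 31, 0 and 28 counts in yHSC replicates 1, 2 and 3, 13, 24 and 2 counts in Selp_low paHSCs, and 1, 3 and 1 counts in Selp_high paHSCs. All 3 Selp_high libraries were thus at or below 3 counts, and no fold is given. The highest *Cav1* level of the series was 1.58 CPM, in Selp_low replicate 2. *Cav1* passed the filter on low counts in the comparison of Selp_low paHSCs with yHSCs alone, where the groups overlapped (log2 fold change 0.23, standard error 1.65).

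*Cav2* (ENSMUSG00000000058, mm39 chromosome 6, 17281184 to 17289114, plus strand), a partner of caveolin 1 that lies next to *Cav1*, was instead the main caveolin transcript. Its level was 24.2, 21.7 and 32.9 CPM in yHSC replicates 1, 2 and 3, 18.1, 4.75 and 9.29 CPM in Selp_low paHSCs, and 39.4, 20.4 and 20.4 CPM in Selp_high paHSCs. All 3 Selp_low libraries were below every library of the other groups, and Selp_high paHSCs and yHSCs overlapped. Means were 26.3 ± 5.84, 10.7 ± 6.79 and 26.7 ± 10.9 CPM in yHSCs, Selp_low and Selp_high paHSCs (SD, n = 3 each). The log2 fold change was 1.31 (standard error 0.55) in Selp_high over Selp_low paHSCs, -1.24 (standard error 0.50) in Selp_low paHSCs over yHSCs and 0.01 (standard error 0.36) in Selp_high paHSCs over yHSCs, the last with a sign that changed with the scaling. Without Selp_low replicates 2 and 3, the first 2 values were 0.58 and -0.64. The median log2 fold change of 10 HSC markers was 1.51 in Selp_high over Selp_low paHSCs, with 9 of 10 higher. It was -1.003 in Selp_low paHSCs over yHSCs, with 6 of 10 lower. Among those that went the other way, *Slamf1* was at 1.97 and *Ly6a* at 1.78 in Selp_low paHSCs over yHSCs. *Ly6a* was also at -1.11 in Selp_high over Selp_low paHSCs. When libraries were scaled to equal sums of HSC markers, the *Cav2* values became 0.59 and -0.85. *Cav2* took 95.97% to 100% of the summed caveolin FPKM in yHSCs, 75.6% to 99.2% in Selp_low paHSCs and 99.65% to 99.9% in Selp_high paHSCs. A long noncoding gene, *Gm15581*, overlaps *Cav1* and *Cav2* on the other strand with 0 to 32 counts per library; no source used here gives the strand setting of the counting.

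The cavins parted from each other. *Cavin2* (ENSMUSG00000045954, mm39 chromosome 1, 51328285 to 51342119, plus strand), a cavin that shapes the membrane curvature of the pit, stood at 24.6, 8.99 and 14.2 CPM in yHSC replicates 1, 2 and 3. In Selp_low paHSCs it reached 86.9, 105 and 178 CPM, and in Selp_high paHSCs 313, 470.0 and 415 CPM. The groups formed 3 steps without overlap, with yHSCs lowest and Selp_high paHSCs highest. The means were 15.9 ± 7.97, 123 ± 48.1 and 399 ± 79.8 CPM (SD, n = 3 each). *Cavin2* was the most abundant of the 10 genes per length in Selp_high paHSCs, at 131 ± 26.1 FPKM, and the 4th in yHSCs, at 5.22 ± 2.61 FPKM. Its log2 fold change was 4.61 (standard error 0.46) in Selp_high paHSCs over yHSCs, 2.96 (standard error 0.48) in Selp_low paHSCs over yHSCs and 1.69 (standard error 0.36) in Selp_high over Selp_low paHSCs. Within equal replicate numbers, Selp_high libraries held 3.60, 4.49 and 2.33 times the Selp_low level.

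*Cavin1* (ENSMUSG00000004044, mm39 chromosome 11, 100847559 to 100861713, minus strand), the cavin without which caveolae do not form in most tissues, kept to a narrow range. Its level was 11.2, 15.1 and 16.1 CPM in yHSCs, 15.7, 11.1 and 19.1 CPM in Selp_low paHSCs, and 14.8, 20.7 and 24.5 CPM in Selp_high paHSCs. The 3 groups overlapped, and the log2 fold changes were 0.47 (standard error 0.32), 0.16 (standard error 0.30) and 0.38 (standard error 0.34) for Selp_high paHSCs over yHSCs, Selp_low paHSCs over yHSCs and Selp_high over Selp_low paHSCs. The last became -0.40 when libraries were scaled to the HSC markers. Within single libraries the balance of the cavins differed between groups: *Cavin2* made up 72.1%, 41.2% and 50.8% of the FPKM of both genes in yHSCs, 86.7%, 91.7% and 91.6% in Selp_low paHSCs, and 96.1%, 96.4% and 95.2% in Selp_high paHSCs. These shares do not depend on how libraries are scaled, and the 3 groups did not overlap. They cover these 2 genes alone and leave out *Cavin3*, a cavin outside the 10 genes. Its mean was 11.2 FPKM in yHSCs, 10.7 FPKM in Selp_low paHSCs and 27.7 FPKM in Selp_high paHSCs, above *Cavin1* in each group. A share of all 3 cavins was not computed. An antisense long noncoding gene over *Cavin1* (ENSMUSG00000120984) held 11 to 315 counts per library, against 168 to 856 for *Cavin1*, so reads of this pair may be split between them.

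**Figure D1:**
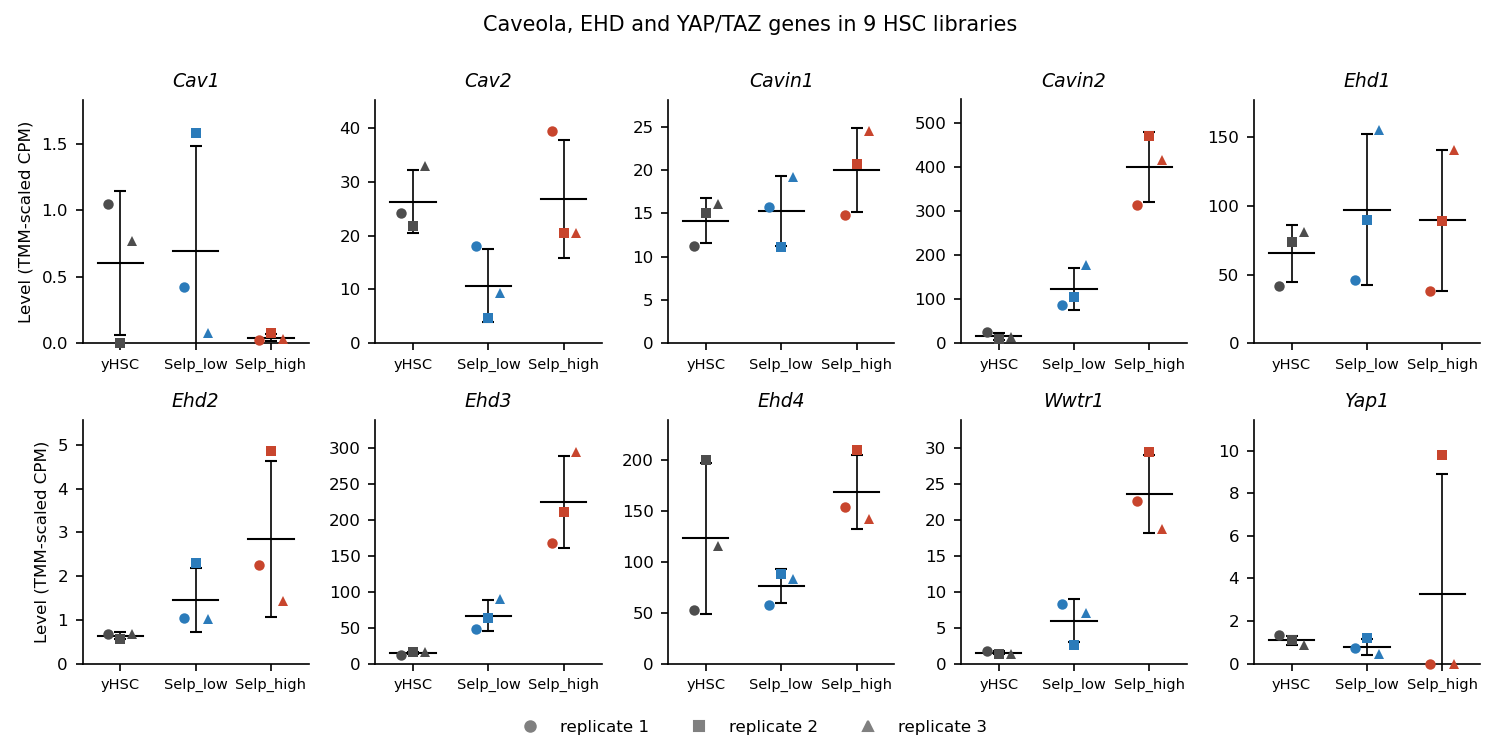
Level of each of the 10 genes in TMM-scaled CPM (y axis, linear, 1 scale per gene) in yHSCs, Selp_low and Selp_high paHSCs (x axis); points are libraries, the wide line is the mean and the bar the SD of 3 libraries, with the part of a bar below 0 not drawn. *Cavin2*, *Ehd3* and *Wwtr1* form 3 steps without overlap, while *Yap1* has a count in 1 of the 3 Selp_high libraries and *Cav1* stays below 2 CPM.

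Among the EHD ATPases, *Ehd3* differed most. *Ehd3* (ENSMUSG00000024065, mm39 chromosome 17, 74111129 to 74139089, plus strand), which acts in early endosome to recycling compartment traffic, stood at 12.5, 15.4 and 16.2 CPM in yHSC replicates 1, 2 and 3. It reached 47.6, 62.9 and 89.9 CPM in Selp_low paHSCs and 168, 210.1 and 294 CPM in Selp_high paHSCs. The groups again formed 3 steps without overlap, with means of 14.7 ± 1.95, 66.8 ± 21.4 and 224 ± 64.1 CPM (SD, n = 3 each). The log2 fold change was 3.90 (standard error 0.30) in Selp_high paHSCs over yHSCs, 2.22 (standard error 0.29) in Selp_low paHSCs over yHSCs and 1.74 (standard error 0.35) in Selp_high over Selp_low paHSCs. The ratio of Selp_high to Selp_low within equal replicate numbers was nearly the same in each, at 3.53, 3.34 and 3.27. This likeness rests on matching libraries by number, which no label gives as a pairing.

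*Ehd4* (ENSMUSG00000027293, mm39 chromosome 2, 119919656 to 119985087, minus strand), another endosomal EHD protein, varied widely in yHSCs, at 52.5, 199.9 and 115 CPM in replicates 1, 2 and 3. It was 57.3, 88.0 and 83.1 CPM in Selp_low paHSCs and 153, 209 and 142 CPM in Selp_high paHSCs. The 2 paHSC fractions did not overlap (log2 fold change 1.14, standard error 0.28), but yHSCs overlapped both. Scaled to the HSC markers, the difference between the fractions was 0.36. *Ehd1* (ENSMUSG00000024772, mm39 chromosome 19, 6326755 to 6350126, plus strand), the member best known for receptor recycling, overlapped in all 3 groups. It was 41.9, 73.8 and 81.2 CPM in yHSCs, 46.4, 89.8 and 156 CPM in Selp_low paHSCs, and 38.5, 89.2 and 141 CPM in Selp_high paHSCs. The log2 fold change of *Ehd1* in Selp_high over Selp_low paHSCs was -0.12 (standard error 0.58), with 0.83 to 0.99 times the Selp_low level within equal replicate numbers; its sign turned when Selp_low replicate 3 or Selp_high replicate 1 was left out.

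*Ehd2* (ENSMUSG00000074364, mm39 chromosome 7, 15680883 to 15701492, minus strand), the EHD protein of the caveolar neck, was the rarest of the family. It had 20, 24 and 25 counts in yHSCs (0.678, 0.556 and 0.683 CPM), 32, 35 and 27 counts in Selp_low paHSCs (1.05, 2.31 and 1.01 CPM) and 87, 197 and 50 counts in Selp_high paHSCs (2.25, 4.86 and 1.43 CPM). Both paHSC fractions lay above all yHSC libraries and overlapped each other. The log2 fold change was 2.13 (standard error 0.75) in Selp_high paHSCs over yHSCs, 1.23 (standard error 0.71) in Selp_low paHSCs over yHSCs and 0.97 (standard error 0.69) between the fractions. Per length *Ehd2* gave under 1% of the EHD transcripts in every library.

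The make-up of the family, which does not depend on the scaling between libraries, held more *Ehd3* in both paHSC fractions than in yHSCs. *Ehd3* gave 7.21%, 3.25% and 4.63% of the summed FPKM of the 4 genes in yHSC replicates 1, 2 and 3, 21.2%, 17.1% and 17.9% in Selp_low paHSCs, and 34.3%, 29.3% and 37.8% in Selp_high paHSCs. The 3 groups did not overlap in this share. *Ehd4* gave the largest mean share in yHSCs (57.5% ± 10.2, SD, n = 3) and in Selp_high paHSCs (42.95% ± 11.5), and *Ehd1* in Selp_low paHSCs (44.8% ± 9.25). The sum of the 4 genes was 50.7 ± 23.0 FPKM in yHSCs, 55.7 ± 21.2 FPKM in Selp_low paHSCs and 100.9 ± 23.1 FPKM in Selp_high paHSCs.

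**Figure D2:**
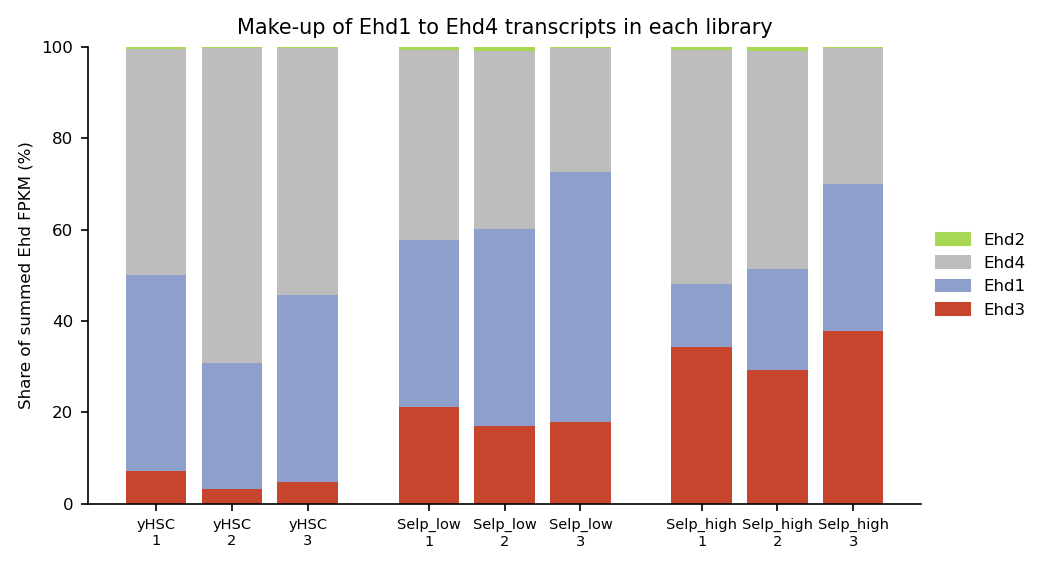
Share of each gene in the summed FPKM of *Ehd1* to *Ehd4* (y axis, percent) in each of the 9 libraries (x axis, group and replicate). The *Ehd3* part at the foot of each bar is 3.25% to 7.21% in yHSCs, 17.1% to 21.2% in Selp_low paHSCs and 29.3% to 37.8% in Selp_high paHSCs.

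Of the YAP/TAZ pair, only *Wwtr1* was measured in every library. *Wwtr1* (ENSMUSG00000027803, mm39 chromosome 3, 57363070 to 57483331, minus strand) stood at 1.80, 1.39 and 1.37 CPM in yHSC replicates 1, 2 and 3, on 50 to 60 counts. It was 8.30, 2.57 and 7.04 CPM in Selp_low paHSCs and 22.5, 29.4 and 18.7 CPM in Selp_high paHSCs. The groups formed 3 steps without overlap, although Selp_low replicate 2 was close to yHSCs, as it was for *Selp*. The log2 fold change was 3.92 (standard error 0.38) in Selp_high paHSCs over yHSCs, 2.01 (standard error 0.57) in Selp_low paHSCs over yHSCs and 1.97 (standard error 0.49) between the fractions. Even in Selp_high paHSCs, *Wwtr1* reached 4.93 ± 1.13 FPKM (SD, n = 3), well under *Cavin2* and *Ehd3* per length.

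*Yap1* (ENSMUSG00000053110, mm39 chromosome 9, 7932000 to 8004597, minus strand) was low and uneven. It had 39, 47 and 32 counts in yHSCs (1.32, 1.09 and 0.875 CPM) and 22, 18 and 12 counts in Selp_low paHSCs (0.721, 1.19 and 0.449 CPM). In Selp_high paHSCs it had 0, 398 and 0 counts, so that 1 library, at 9.81 CPM, set the whole group mean. A fitted fold for this gene rests on that library: in Selp_high over Selp_low paHSCs it was 2.06 (standard error 2.15) on the log2 scale with it and -7.52 without it, a value set by the small count added to libraries at 0 and not a bound. *Wwtr1* was the larger of the pair in every library, with 71.2% to 75.2% of the FPKM of both in yHSCs, 80.8% to 96.8% in Selp_low paHSCs and 85.3% to 100% in Selp_high paHSCs.

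Read across all tested genes, these differences gave few calls. In edgeR's quasi-likelihood test, a gene counted as called where its Benjamini-Hochberg adjusted p did not exceed 0.05 and its level differed by 1 or more on the log2 scale, the limits the study used. In Selp_high paHSCs over yHSCs, 3 of the 9 members that passed the filter were called, all higher (*Cavin2*, *Ehd3* and *Wwtr1*), where 0.165% of all 20017 genes tested were called and 0.105% were called higher. At an unadjusted p under 0.05, 4 members were higher and 0 lower, beside 4.48% and 3.11% of all genes (7.59% in all). The 3 calls were lost when yHSC replicate 2 or 3 or Selp_high replicate 2 or 3 was left out, and 0 members were called with the replicate number as a block. In Selp_high over Selp_low paHSCs, 0 of 9 were called and 0% of 20370 genes tested, with 5 members higher at an unadjusted p under 0.05, as were 6.88% of all genes. In Selp_low paHSCs over yHSCs, 0 of 10 were called and 0% of 20437 genes tested, with 3 higher and 1 lower at an unadjusted p under 0.05, against 7.11% and 4.17% of all genes. DESeq2, the tool of the study, called *Cavin2*, *Ehd3* and *Wwtr1* in each of the 3 comparisons, each time higher. Of the genes with an adjusted p, DESeq2 called 2.99% in Selp_high paHSCs over yHSCs (1.88% higher and 1.11% lower). Between the fractions it called 2.21% (0.728% higher and 1.48% lower), and in Selp_low paHSCs over yHSCs 2.89% (1.96% higher and 0.936% lower). Because the members were listed with these contrasts known, nothing is read from their share of calls.

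All Selp_high libraries lay above all Selp_low libraries for 5 of 9 members tested (*Cavin2*, *Cav2*, *Ehd3*, *Ehd4* and *Wwtr1*), an order that 10.3% of all genes tested had. Against yHSCs this held for 4 of 9 members in Selp_high paHSCs (8.53% of all genes, with 5.28% in the opposite order and 0 members) and for 4 of 10 in Selp_low paHSCs (9.59% of all genes), in both cases *Cavin2*, *Ehd2*, *Ehd3* and *Wwtr1*, while *Cav2* was below yHSCs in all Selp_low libraries (6.76% of all genes). By the fitted value alone, 8 of 9 members were higher between the fractions, 9 of 9 in Selp_high paHSCs over yHSCs and 7 of 10 in Selp_low paHSCs over yHSCs, as were 44.8%, 47.8% and 55.1% of all genes. The comparisons share libraries and are not independent of each other. The median log2 fold change of the tested members was 1.31 between the fractions, 1.56 in Selp_high paHSCs over yHSCs and 0.42 in Selp_low paHSCs over yHSCs, beside -0.11, -0.03 and 0.08 for all genes tested. The value of 1.56 is that of *Yap1* and became 0.43 without Selp_high replicate 2, and 2.15 without replicate 1 or 3 of that group. With exact permutation of 3 libraries against 3, the smallest 2-sided p is 0.1.

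**Figure D3:**
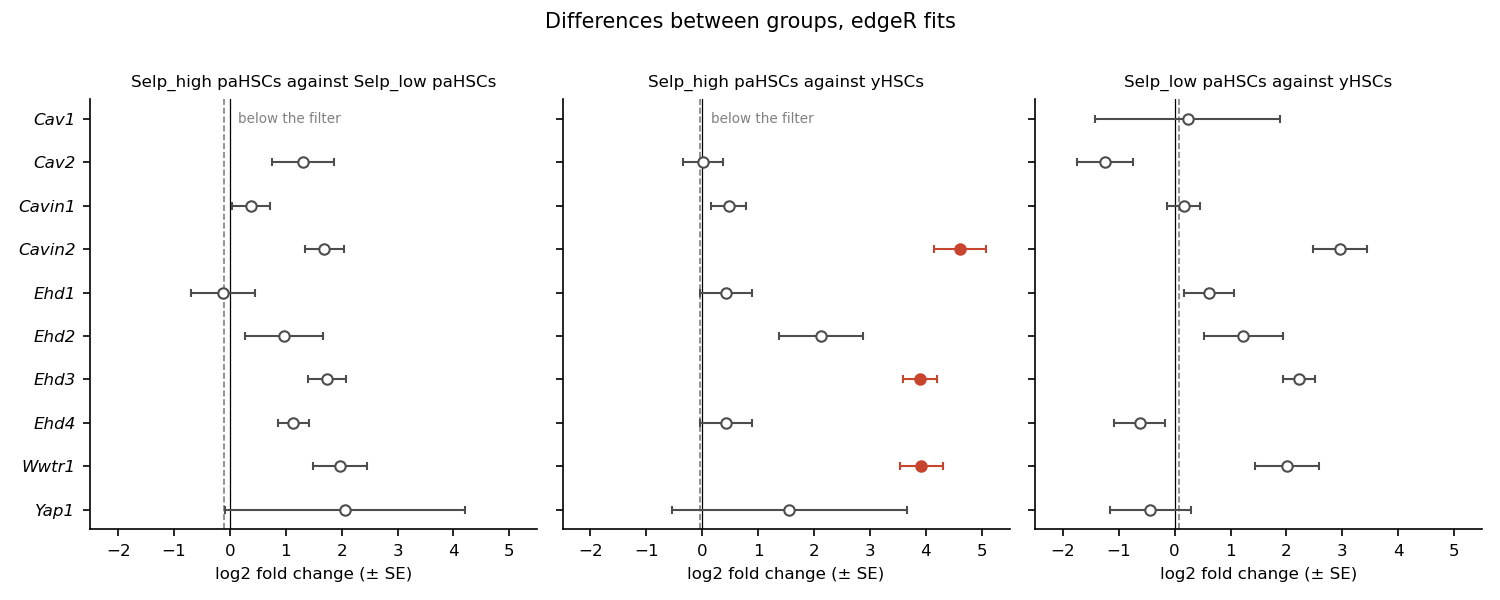
Fitted log2 fold change with its standard error (x axis) of each gene (y axis) in the 3 comparisons; the dashed line is the median of all genes tested and filled symbols are genes called by edgeR at the stated thresholds. Filled symbols appear in Selp_high paHSCs against yHSCs alone, for *Cavin2* at 4.61, *Wwtr1* at 3.92 and *Ehd3* at 3.90.

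For *Cavin2*, *Ehd3* and *Wwtr1*, values were also taken without the libraries that stood apart and on the scale of the HSC markers. Without Selp_low replicates 2 and 3, the log2 fold change in Selp_high over the remaining Selp_low library was 2.21 for *Cavin2*, 2.24 for *Ehd3* and 1.52 for *Wwtr1*. That library, Selp_low replicate 1, held other cells' markers too: 5477 CPM of B-cell and plasma-cell markers, 350.2 CPM of T and NK cell markers and 2937 CPM of erythroid markers, each above every Selp_high and yHSC library. Set against the summed HSC markers of the same library, *Cavin2* came to 0.526% to 2.64% in yHSCs, 6.37% to 25.5% in Selp_low paHSCs and 15.8% to 28.2% in Selp_high paHSCs, so that on this scale Selp_low replicate 3 lay within the Selp_high range. *Ehd3* came to 0.801% to 1.34%, 3.49% to 12.9% and 8.52% to 20.0%, with the same overlap by Selp_low replicate 3. *Wwtr1* came to 0.0676% to 0.193%, 0.204% to 1.01% and 1.14% to 1.71%, without overlap. With libraries scaled to these markers, the differences between the fractions were 0.83, 0.93 and 1.18 on the log2 scale, and those of Selp_high paHSCs over yHSCs 4.21, 3.74 and 3.61, in the order *Cavin2*, *Ehd3*, *Wwtr1*. edgeR then called 0 members over yHSCs. With TMM scaling, *Slamf1*, a marker within this sum, was itself called higher in Selp_high paHSCs over yHSCs (3.25). The HSC-marker scale is thus not independent of the groups.

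Markers of other cell types differed between the same groups. Of the 14 megakaryocyte and platelet markers, 13 passed the filter, and all 13 were higher in Selp_high paHSCs than in both other groups. The median log2 fold change was 2.29 over Selp_low paHSCs and 4.13 over yHSCs. In Selp_low paHSCs over yHSCs, 11 of these markers were higher and 2 lower, with a median of 1.55. Their sum ranged from 587 to 1038 CPM in yHSCs, from 643 to 2690 CPM in Selp_low paHSCs and from 3298 to 9967 CPM in Selp_high paHSCs, and *Gp1bb* was at 0 in all yHSC libraries. *Cavin2* is itself known as a platelet protein, and the part of megakaryocyte RNA in these results was not tested. Of 12 endothelial markers 11 were higher in Selp_high than in Selp_low paHSCs, with a sum of 199 to 465 CPM in yHSCs, 157 to 224 CPM in Selp_low paHSCs and 372 to 644 CPM in Selp_high paHSCs. *Tie1* (2.23), *Flt4* (2.39), *Kdr* (1.58) and *Tek* (1.34) lay above every Selp_low library in all Selp_high libraries, and DESeq2 called *Tie1* of these (adjusted p = 0.00215, against 0.338 by edgeR). *Flt1* went the other way, with all Selp_high libraries below every Selp_low library (-1.68, adjusted p = 0.489 by edgeR). They were also below every yHSC library for *Flt1* (-1.92, adjusted p = 0.781 by edgeR). Over yHSCs, 8 of the 12 markers were higher and 4 lower in Selp_high paHSCs, with a median of 0.40. *Cdh5* was at 0.258 to 1.64 CPM over the 9 libraries. The part of endothelial RNA in the results was not tested. Stromal markers summed to 33.3 to 127 CPM in yHSCs, 14.3 to 56.6 CPM in Selp_low paHSCs and 25.8 to 37.2 CPM in Selp_high paHSCs. Of those tested, 4 were higher and 3 lower between the fractions, and 2 higher and 6 lower in Selp_high paHSCs over yHSCs. *Col1a2* was higher in all Selp_high than in all Selp_low libraries (2.00, adjusted p = 0.338 by edgeR, 0.0175 by DESeq2). *Cxcl12* was lower in all Selp_high libraries than in yHSCs (-2.97, adjusted p = 0.467 by edgeR, 0.0222 by DESeq2). Adipocyte markers summed to 31.3 to 46.2 CPM in yHSCs, 14.8 to 44.1 CPM in Selp_low paHSCs and 54.2 to 128 CPM in Selp_high paHSCs. Of these, *Lpl* was higher in all Selp_high libraries than in Selp_low paHSCs (1.65, adjusted p = 0.338 by edgeR, 0.0673 by DESeq2) and than in yHSCs (1.30, adjusted p = 0.156 by edgeR, 0.000633 by DESeq2), while *Adipoq* did not exceed 0.57 CPM in Selp_high paHSCs and reached 14.4 CPM in yHSCs. T and NK cell markers summed to 86.4 to 112 CPM in yHSCs, 350.2 to 936 CPM in Selp_low paHSCs and 142 to 174 CPM in Selp_high paHSCs, with 6 of 7 lower in Selp_high than in Selp_low paHSCs and a median of -2.78. Erythroid markers summed to 311 to 2528, 1528 to 2937 and 799 to 1186 CPM in the same order, with 6 of 7 lower and a median of -0.97. Both sums separated the fractions without overlap, Selp_low replicate 1 included. The T and NK marker that went the other way was *Klrb1c*, higher in all Selp_high libraries than in Selp_low paHSCs (1.90, adjusted p = 0.338 by edgeR). In Selp_high paHSCs over yHSCs, edgeR called *Klrb1c* higher (4.20, adjusted p = 0.0265). The part of stromal, adipocyte, T, NK and erythroid cells in the results was not tested.

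Over the 9 libraries, log2 CPM of *Cavin2* and *Ehd3* correlated at Pearson's r = 0.97, and *Wwtr1* correlated at 0.93 with each. The r with *Selp* was 0.96 for *Wwtr1*, 0.88 for *Ehd3*, 0.85 for *Cavin2*, 0.65 for *Ehd2*, 0.60 for *Cavin1*, 0.41 for *Ehd4*, 0.28 for *Cav2* and 0.01 for *Ehd1*. It was -0.45 for *Yap1* and -0.64 for *Cav1*. These values describe 9 libraries that fall into 3 groups, and they carry no p. Within Selp_high paHSCs, replicate 1 had the most *Selp* (651 CPM) and the least *Cavin2* and *Ehd3*. Among 13118 protein-coding genes with a mean of at least 1 CPM, the patterns most like *Cavin2* were those of *Clca3a1* (r = 0.98), *Gm42517* (0.98) and *Clu* (0.97). For *Ehd3* they were *Exoc3l4* (0.99), *Reep2* (0.98) and *Mgmt* (0.97), and for *Wwtr1* *Clu* (0.98), *Aldh1a1* (0.97) and *Rhoj* (0.97). *Cav2* followed other genes, *Cyp2j6* (0.99), *Cyp7b1* (0.99) and *Vegfc* (0.98), and *Ehd1* was closest to *Fadd* (0.98), *Bak1* (0.97) and *Vasp* (0.96). For *Cavin1*, *Ehd2*, *Ehd4* and *Yap1*, the closest genes were *Apba1* (0.91), *Hpse* (0.94), *Begain* (0.95) and *Pard3* (0.95).

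**Figure D4:**
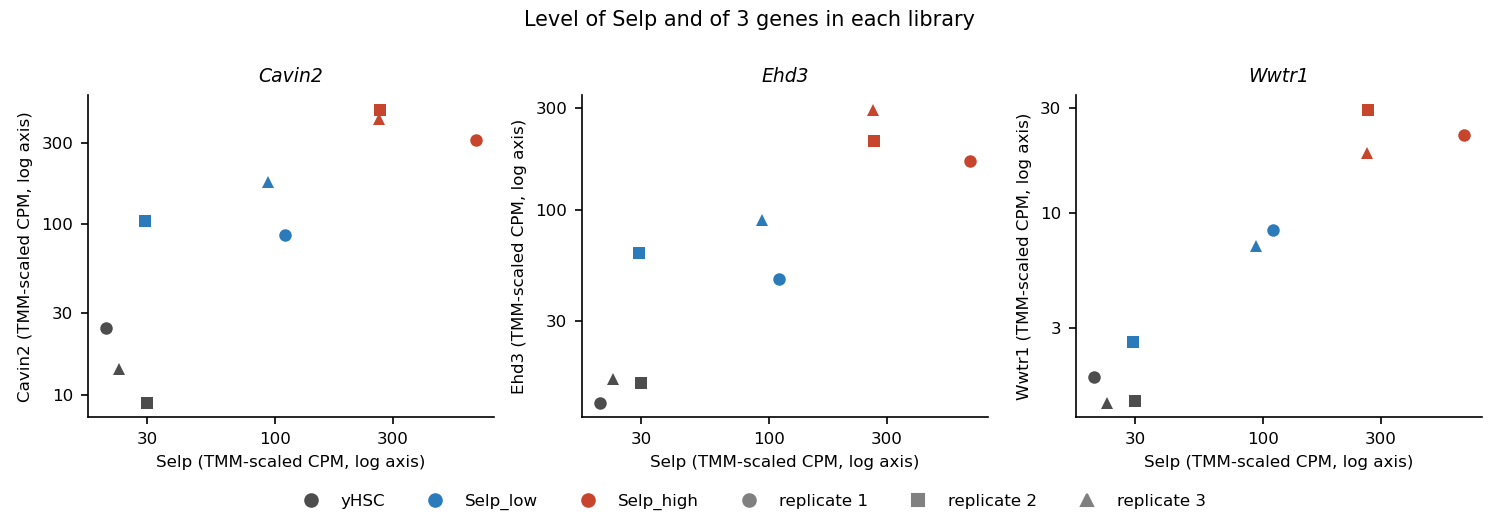
Level of *Cavin2*, *Ehd3* and *Wwtr1* (y axes) against that of *Selp* (x axis) in each of the 9 libraries, both in TMM-scaled CPM on log axes; colour marks the group and shape the replicate. Selp_high libraries lie at the upper right, and Selp_low replicate 2, at 29.3 CPM of *Selp*, sits at the yHSC level of *Selp* with 105 CPM of *Cavin2*.

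Partners of caveolae and EHD proteins were looked up in a list of 17 genes written from general knowledge. Of these, 14 were tested between the fractions, 15 in Selp_high paHSCs over yHSCs and 14 in Selp_low paHSCs over yHSCs, and edgeR called 0 in each. *Dnm3*, a dynamin that cuts off budding membrane, was at 2.54, 0.0926 and 0.437 CPM in yHSC replicates 1, 2 and 3, at 3.28, 11.7 and 2.06 CPM in Selp_low paHSCs and at 15.8, 11.8 and 8.82 CPM in Selp_high paHSCs. Its log2 fold change in Selp_high paHSCs over yHSCs was 3.52 (standard error 1.08, adjusted p = 0.403 by edgeR, 0.0166 by DESeq2). *Cavin3*, the third cavin, was at 19.0, 17.1 and 19.6 CPM in yHSCs, 29.7, 7.45 and 16.1 CPM in Selp_low paHSCs and 76.7, 29.0 and 32.1 CPM in Selp_high paHSCs, which lay above all yHSC libraries (log2 fold change 1.28, adjusted p = 0.464 by edgeR and 0.154 by DESeq2). *Snap29*, a SNARE protein that binds EHD1, was higher in all Selp_low libraries than in yHSCs (0.96, adjusted p = 0.368 by edgeR). The muscle genes *Cav3* and *Cavin4* had at most 1 count in any library. The medians of the list were 0.19, -0.08 and 0.00 for the fractions, Selp_high paHSCs over yHSCs and Selp_low paHSCs over yHSCs, near those of all genes.

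Of the 23 Hippo kinases, adaptors and scaffolds, 21 to 23 were tested and edgeR called 0 in each comparison. *Amotl2*, an angiomotin that binds YAP and TAZ in the cytoplasm and is itself a YAP/TAZ target, came closest. It stood at 3.12, 5.77 and 7.05 CPM in yHSC replicates 1, 2 and 3, at 6.62, 4.55 and 21.5 CPM in Selp_low paHSCs, and at 29.8, 37.3 and 41.3 CPM in Selp_high paHSCs. Selp_high paHSCs lay above both other groups, which overlapped each other. The log2 fold change over yHSCs was 2.75 (standard error 0.37, adjusted p = 0.0604 by edgeR, 1.72e-10 by DESeq2) and over Selp_low paHSCs 1.73 (standard error 0.59, adjusted p = 0.346 by edgeR, 0.134 by DESeq2). Between the fractions, *Ajuba* (1.37) and *Frmd6* (1.01) were also higher in all Selp_high libraries, at adjusted p = 0.362 and 0.359 by edgeR, and *Ptpn14* was higher in Selp_high paHSCs over yHSCs (1.26, adjusted p = 0.553 by edgeR). In Selp_low paHSCs over yHSCs, *Wwc2* (-1.07), *Ajuba* (-0.79) and *Amot* (-0.79) were lower in all Selp_low libraries and *Mob1b* (0.75) higher, at adjusted p from 0.372 to 0.687 by edgeR. The kinases *Stk3*, *Stk4*, *Lats1* and *Lats2* were present in every library, and the medians of the list were 0.00, -0.13 and 0.01 in the same order of comparisons.

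The TEAD factors, through which YAP and TAZ reach DNA, were low. *Tead2* was at 2.58, 11.3 and 12.1 CPM in yHSCs, 4.0, 3.30 and 3.33 CPM in Selp_low paHSCs and 8.49, 11.3 and 9.27 CPM in Selp_high paHSCs. Selp_high paHSCs lay above Selp_low paHSCs (log2 fold change 1.44, standard error 0.36, adjusted p = 0.338 by edgeR, 0.0624 by DESeq2), and yHSCs overlapped both. *Tead3* stayed at 0.264 to 2.02 CPM, with Selp_low libraries below those of Selp_high paHSCs (1.49, adjusted p = 0.516 by edgeR) and of yHSCs (-1.69, adjusted p = 0.474 by edgeR). *Tead1* ranged from 0.0463 to 2.24 CPM and *Tead4* had at most 12 counts. *Vgll4*, a cofactor that competes with YAP and TAZ for TEAD, was at 59.3, 67.1 and 55.4 CPM in yHSCs and 48.4, 32.4 and 26.5 CPM in Selp_high paHSCs (log2 fold change -0.79, standard error 0.31, adjusted p = 0.592 by edgeR). Of the 8 genes of this list, 4 were tested in each comparison and edgeR called 0.

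The 22 genes of a YAP/TAZ target list went in both directions. Between the fractions, 20 were tested, 10 were higher and 10 lower by their fitted value, and edgeR called 0. At an unadjusted p under 0.05, 5 were higher and 2 lower, beside 6.88% and 5.67% of all genes. *Arhgef17* was at 2.64, 13.9 and 11.5 CPM in yHSCs, 2.10, 1.25 and 2.36 CPM in Selp_low paHSCs and 8.85, 14.2 and 12.0 CPM in Selp_high paHSCs. Its log2 fold change was 2.60 in Selp_high over Selp_low paHSCs (standard error 0.43, adjusted p = 0.338 by edgeR, 0.000322 by DESeq2) and -2.23 in Selp_low paHSCs over yHSCs (adjusted p = 0.337 by edgeR, 0.0431 by DESeq2). *Axl*, a receptor tyrosine kinase, was at 20.9, 71.7 and 106 CPM in yHSCs and 12.1, 15.4 and 6.11 CPM in Selp_low paHSCs (-2.48, adjusted p = 0.332 by edgeR, 0.0133 by DESeq2). In Selp_high paHSCs *Axl* was at 36.7, 92.5 and 13.6 CPM and overlapped both other groups. Its log2 fold change there was 2.08 over Selp_low paHSCs (adjusted p = 0.348 by edgeR, 0.109 by DESeq2) and -0.46 over yHSCs. *Fjx1* was higher in all Selp_high libraries than in either other group (2.05 over Selp_low paHSCs and 2.42 over yHSCs, adjusted p = 0.352 and 0.464 by edgeR), on 54 to 198 counts. *Nt5e* (-2.04) and *Tgfb2* (-1.88) were lower in Selp_high than in Selp_low paHSCs, at adjusted p = 0.338 and 0.471 by edgeR. *F3* and *Ccdc80* were lower in Selp_high paHSCs than in yHSCs (-2.43 and -2.51), and *F3* also in Selp_low paHSCs (-2.87), at adjusted p from 0.465 to 0.833 by edgeR.

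*Ccn1*, *Ccn2* and *Ankrd1*, the targets most used as readouts of YAP and TAZ, overlapped between groups in every comparison. *Ankrd1* was at 9.83, 0 and 0.219 CPM in yHSC replicates 1, 2 and 3, 2.75, 8.96 and 0.899 CPM in Selp_low paHSCs and 0.0516, 0.937 and 0.143 CPM in Selp_high paHSCs. It was lower in Selp_high than in Selp_low paHSCs within all 3 replicate numbers, and the fractions overlapped only by Selp_high replicate 2 and Selp_low replicate 3. Between the fractions it had the lowest fitted value of the target list, -3.46 on the log2 scale (standard error 1.31), at adjusted p = 0.368 by edgeR and 0.0516 by DESeq2. *Ccn1* was at 23.9, 26.6 and 38.7 CPM in yHSCs, 67.3, 3.82 and 72.6 CPM in Selp_low paHSCs and 42.8, 0.592 and 35.6 CPM in Selp_high paHSCs, with the second replicate low in both fractions. Within all 3 replicate numbers *Ccn1* too was lower in Selp_high paHSCs (-0.87, standard error 1.39, adjusted p = 0.831 by edgeR, 0.843 by DESeq2). *Ccn2* was at 0.271, 1.78 and 2.10 CPM in yHSCs. In Selp_low paHSCs it was at 0.557, 0.132 and 0 CPM, and in Selp_high paHSCs at 2.84, 1.11 and 0 CPM. *Ccn2* thus went the other way between the fractions, higher in Selp_high paHSCs in replicates 1 and 2 and at 0 in both fractions in replicate 3. For Selp_high over Selp_low paHSCs, edgeR fitted 2.45 for *Ccn2* with a standard error of 1.91. The adjusted p values of edgeR and DESeq2 for it were 0.634 and 0.553. The target list had a median log2 fold change of -0.05 between the fractions, -0.17 in Selp_high paHSCs over yHSCs and 0.20 in Selp_low paHSCs over yHSCs, beside -0.11, -0.03 and 0.08 for all genes tested. By DESeq2, 1 target was called between the fractions (*Arhgef17*), 2 in Selp_high paHSCs over yHSCs (*Amotl2* and *Fjx1*) and 2, both lower, in Selp_low paHSCs over yHSCs (*Axl* and *Arhgef17*).

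**Figure D5:**
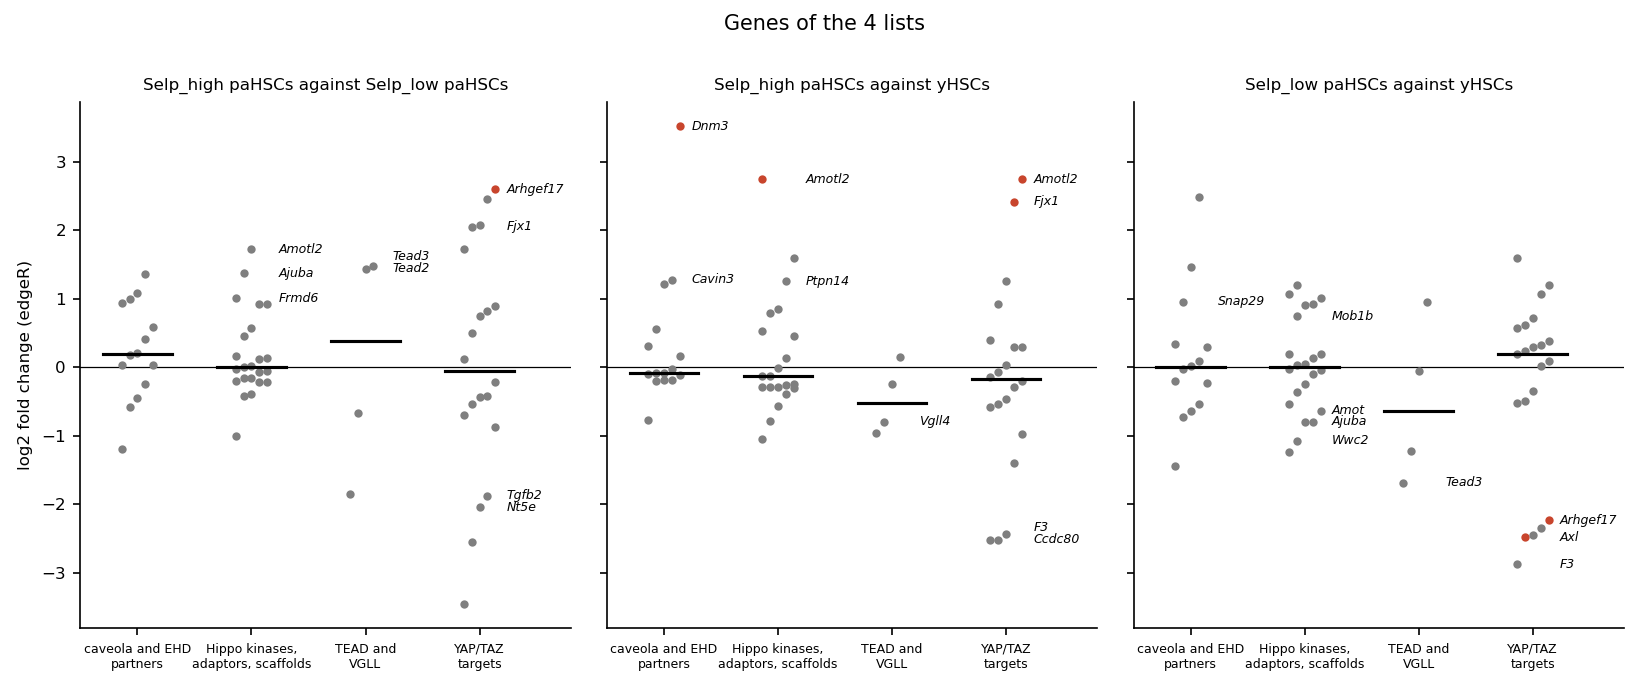
Fitted log2 fold change (y axis) of each tested gene of the 4 lists (x axis) in the 3 comparisons; the wide line is the median of a list, red points are genes called by DESeq2, and names mark the genes described in the text. The medians lie between -0.64 and 0.39, and edgeR called 0 genes of these lists.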

How the data were processed

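RNA-seq libraries of sorted HSCs were made with SMARTer Ultra Low RNA and TruePrep kits and trimmed with fastp by the authors. The submitters' processing notes name CASAVA 1.8, the mm39 build, HISAT2 2.2.1, featureCounts 2.0.6 and DESeq2 1.42.0. The authors deposited 1 table of whole-number read counts per gene for the 9 libraries, not normalized, with 0 per-sample columns that match no sample. The annotation release and the handling of reads with several positions are not named in any source used here. FPKM values are computed from these counts with the length column beside them.

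Each pair of groups was tested in R 4.3.3 with edgeR 4.0.16 (TMM factors, filterByExpr, quasi-likelihood test in its older setting, Benjamini-Hochberg adjustment over all genes tested). Fold changes were fitted with edgeR's default prior count, and a prior count of 2 was used for log2 CPM in the correlations. DESeq2 1.42.0, limma 3.58.1 (voom with quality weights), other factors, filters and samples, and a replicate block were alternatives. The edgeR test gives no standard error, so those printed with its fold changes were derived. Each is the absolute log2 fold change divided by the square root of the F statistic. The test was tried on simulated counts first. Deviations from group means of same-numbered Selp_high and Selp_low libraries correlated at 0.178, 0.276 and 0.303. Unlike-numbered libraries of the 2 fractions correlated at -0.245 to 0.0252. Equal numbers were therefore taken as pairs, which is an assumption from the data and not from a label. The pairs entered only the ratios within equal replicate numbers and the replicate block. The main fits between the fractions had group as their only term and did not use the pairs. With yHSCs, r of same-numbered libraries was -0.417 to 0.0917, and the numbers were not taken as pairs. Unlike-numbered Selp_high and yHSC libraries, from mice of different ages, reached 0.449 and 0.406. Correlations of the size seen between the fractions therefore do not establish pairs.

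The genes, lists, tests and marker lists were chosen with earlier results of these data known, and scaling to the HSC markers and leaving out Selp_low replicates 2 and 3 together were added after the data were seen. All members and *Selp* were named. From each list and comparison, at most 4 tested genes were named, those with the largest fold change among genes without overlap and with a mean of at least 1 CPM in either group, together with any called gene, the TEAD genes, *Ccn1*, *Ccn2* and *Ankrd1*. *Stk3*, *Stk4*, *Lats1*, *Lats2*, *Cav3*, *Cavin4* and single markers were named after their values were seen. Figures were drawn with Python 3.11.15 and matplotlib 3.10.9.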

Additional observations from a re-analysis of the deposited data

How the results depend on the processing

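Fold changes are on the log2 scale, and the causes of the changes listed were not tested. *Cavin2*, *Ehd3* and *Wwtr1* kept their direction in all 3 comparisons under every alternative run. Between the fractions DESeq2 called 3 members and no filter on low counts 2 (*Cavin2* and *Ehd3*). In Selp_high paHSCs over yHSCs 0 were called with scaling to the HSC markers, against 3 with that scaling in edgeR's newer setting, and 0 to 3 with 1 library left out. In Selp_low paHSCs over yHSCs DESeq2 called 3, voom 2 and no filter 2. List genes called between the fractions were 1 by DESeq2 and 1 with no filter. Over yHSCs in Selp_high paHSCs they were 3 by DESeq2, 2 by voom, 2 with no filter, and 1 each in the newer setting, with protein-coding genes alone, with RLE factors and with HSC-marker scaling in the newer setting. In Selp_low paHSCs over yHSCs they were 2 by DESeq2, 1 by voom and 1 with no filter.

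Over all genes, edgeR called 0 between the fractions (2555 at an unadjusted p under 0.05), 33 in Selp_high paHSCs over yHSCs and 0 in Selp_low paHSCs over yHSCs (2306 at an unadjusted p under 0.05). The alternatives called, between the fractions, 582 (DESeq2), 193 (no filter), 14 (without Selp_low replicates 2 and 3) and 0 to 50 (1 library left out, 50 without Selp_low replicate 3). Over yHSCs in Selp_high paHSCs they called 605 (DESeq2), 275 (voom), 92 (newer setting), 472 (no filter), 19 (1 fit of all 9 libraries), 61 (protein-coding genes), 10 and 62 (HSC-marker scaling in the older and newer setting) and 0 to 36 (1 library left out). In Selp_low paHSCs over yHSCs they called 519 (DESeq2), 431 (voom), 365 (no filter) and 0 to 118 (1 library left out, 118 without Selp_low replicate 3).

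With the replicate block, 9 genes were called between the fractions, where equal numbers were taken as pairs without a label. In Selp_high paHSCs over yHSCs, where they were not taken as pairs, 0 were called. The block gave 0 members called in both, a member median of 0.60 in Selp_high paHSCs over yHSCs, and reversed values of -0.40 for *Cav1* in Selp_low paHSCs over yHSCs, -0.058 for *Cav2* in Selp_high paHSCs over yHSCs, and -2.80 and -4.56 for *Yap1* in Selp_high paHSCs over Selp_low paHSCs and over yHSCs. It changed no other call among members and list genes.

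The member median between the fractions was 0.588 and 0.587 with HSC-marker scaling in the older and newer setting. In Selp_high paHSCs over yHSCs it was 0.49 by voom, 1.20 with HSC-marker scaling and 0.43 to 2.15 with 1 library left out. In Selp_low paHSCs over yHSCs it was 1.04 with that scaling in both settings and -0.26 without Selp_low replicates 2 and 3.

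Each direction that turned belonged to a member whose groups overlapped in that comparison. *Cav2* in Selp_high paHSCs over yHSCs was -0.0071 by DESeq2 and with RLE factors, -0.32 by voom, -0.022 with no filter, -0.0027 with protein-coding genes, -0.27 and -0.25 with HSC-marker scaling and -0.39 to 0.19 with 1 library left out. *Cav1* in Selp_low paHSCs over yHSCs was -0.55 without Selp_low replicates 2 and 3 and -1.25 to 0.84 with 1 library left out. *Cavin1* was -0.40 between the fractions with HSC-marker scaling in both settings and -0.080 to 0.31 in Selp_low paHSCs over yHSCs with 1 library left out. *Ehd1* between the fractions was 0.65 by voom, 0.95 without Selp_low replicates 2 and 3 and -0.61 to 0.39 with 1 library left out. *Ehd1* in Selp_low paHSCs over yHSCs was -0.056 by voom and -0.62 without those replicates, and in Selp_high paHSCs over yHSCs -0.045 to 0.78 with 1 library left out. *Ehd4* in Selp_low paHSCs over yHSCs was 0.0041 and 0.0036 with HSC-marker scaling. *Yap1* was -3.67 and -3.37 by voom over Selp_low paHSCs and over yHSCs, and -7.52 to 2.65 and -8.36 to 2.15 with 1 library left out. Depth limits *Cav1*, *Ehd2* and *Yap1*, whose counts were under 100 in most libraries.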
